A study of Mus musculus with 4 samples.

Results

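The 134 genes described here encode the Trim, Fbxo, Fbxl, Asb and Klhl proteins, 5 families that select proteins for ubiquitin marking. They are all symbols that begin with 1 of these family names followed by a digit, out of 12408 genes listed for mouse heart, and comprise 40 Trim, 28 Fbxo, 18 Fbxl, 16 Asb and 32 Klhl genes. The rule used names only, not expression values, but earlier results of these data were known when it was chosen. RNA sequencing was done on hearts of C57BL/6 mice at 3 months of age, with 4 libraries in all. The labels do not say whether a library holds 1 heart or a pool. Both control (CT) libraries had the genotype WW45 flox/flox, in which a Hippo pathway scaffold gene, listed as Sav1, carries recombination sites but is intact. Both knockout (cKO) libraries had the genotype WW45 flox/flox-alpha-MHC-CRE, where the alpha-myosin heavy chain promoter drives Cre in cardiomyocytes and leaves other heart cells undeleted. In each genotype 1 library was from baseline, and 1 followed 4 weeks of transverse aortic constriction (TAC), a narrowing of the aorta that raises the pressure the left ventricle works against. No library is labelled sham-operated or Cre without floxed WW45, so surgery and load, or Cre and deletion, cannot be told apart.

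Ubiquitin ligases attach ubiquitin to chosen proteins, often sending them to the proteasome. Most Trim proteins, though not all, carry their own RING domain and can act as ligases themselves. The other families are substrate receptors: F-box proteins (Fbxo, and Fbxl with leucine-rich repeats) join cullin 1 through Skp1, Kelch proteins (Klhl) join cullin 3, and SOCS-box proteins with ankyrin repeats (Asb) join cullin 5 through elongins. In striated muscle Trim63 (MuRF1) and Fbxo32 (atrogin-1) are known for the breakdown of sarcomere proteins during atrophy, and FoxO transcription factors are known to switch on both.

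Promoters are shown for a pair of muscle RING-finger genes, Trim63 and Trim54, and for the antiviral genes Trim21 and Trim30a, because these are the muscle and antiviral genes described below. The sequences come from RefSeq (GRCm38.p6, the assembly of mm10), run 5′ to 3′ on the gene's strand from 250 bases before the annotated start to 30 after it, and carry matched motif letters in capitals. They lie at chr4:134314870-134315149 (plus strand) for Trim63, chr5:31116362-31116641 (plus) for Trim54, chr7:102565453-102565732 (minus) for Trim21, and chr7:104465164-104465443 (minus) for the first of 2 annotated starts of Trim30a.
Trim63: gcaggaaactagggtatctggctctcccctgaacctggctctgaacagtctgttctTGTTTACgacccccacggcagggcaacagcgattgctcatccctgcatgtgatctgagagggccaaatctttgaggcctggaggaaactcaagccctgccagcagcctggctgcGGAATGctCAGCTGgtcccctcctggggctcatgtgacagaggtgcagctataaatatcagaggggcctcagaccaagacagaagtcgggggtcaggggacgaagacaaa
Trim54: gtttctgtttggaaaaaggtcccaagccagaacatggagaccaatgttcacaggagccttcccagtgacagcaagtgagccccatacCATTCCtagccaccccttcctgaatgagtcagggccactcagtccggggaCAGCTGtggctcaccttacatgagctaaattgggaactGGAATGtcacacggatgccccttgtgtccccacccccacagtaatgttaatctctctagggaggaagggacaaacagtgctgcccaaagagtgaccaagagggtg
Trim21: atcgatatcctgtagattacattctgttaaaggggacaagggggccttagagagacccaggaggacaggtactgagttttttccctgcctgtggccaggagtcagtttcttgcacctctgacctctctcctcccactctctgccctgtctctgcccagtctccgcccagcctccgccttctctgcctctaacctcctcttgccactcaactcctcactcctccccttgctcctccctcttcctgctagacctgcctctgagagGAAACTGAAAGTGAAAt
Trim30a: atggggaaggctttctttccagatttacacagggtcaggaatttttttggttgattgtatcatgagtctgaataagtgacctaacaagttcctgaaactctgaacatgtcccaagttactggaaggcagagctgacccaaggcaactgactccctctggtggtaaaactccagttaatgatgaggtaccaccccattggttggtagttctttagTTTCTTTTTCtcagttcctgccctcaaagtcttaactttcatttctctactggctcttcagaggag

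The search took both strands of windows of 250 bases before to 50 after the start, and 109 of the 134 genes had such a window. Fbxo32 and Trim16 had none, so their promoters were not searched. The capitals in Trim63 mark the FoxO core GTAAACA, read on the other strand at position -194, the TEAD core CATTCC, also on the other strand, at -80, and the E-box CAGCTG, which reads alike on both strands, at -72. Trim54 held CATTCC at -163 and, on the other strand, at -75, with CAGCTG at -113. Trim21 held the core of interferon response elements, GAAA and a second GAAA with any 2 bases between, at 14 and again at 20 after the start, and these matches overlap. Trim30a held that motif on the other strand at -36.

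Among the 11 antiviral Trim genes with a window, 8 held the interferon core, namely Trim5, Trim12a, Trim12c, Trim21, Trim26, Trim30a, Trim30d and Trim34a. It was in 13.8% of the 109 members with a window and in 3.99% of all 27025 genes with one. CAGCTG was in 11 of 23 muscle-list genes with a window (47.8%) and in 5 of the 11 antiviral genes (45.5%), in 31.2% of the 109 and in 18.3% of all genes. GTAAACA was in 3 of the 109 (2.75%), Trim63, Asb16 and Asb18, against 4.05% of all genes. CATTCC was in 16.5% against 16.6%, TGACNNNGC, the core of antioxidant elements, in 14.7% against 14%, and the glucocorticoid element, AGAACA and TGTTCT with any 3 bases between, in none of the 109 and in 3 of all genes. Of the 9522 listed genes with a window, 3.74% held the interferon core, 18.3% CAGCTG, 3.07% GTAAACA, 14.7% CATTCC and 17.1% TGACNNNGC. Only exact matches were counted, so a near match is left out. In Trim63 the letters tgaacagtctgttct, directly before the marked FoxO core, differ from the glucocorticoid element in the first letter only. The count of none therefore does not show that such elements are absent. A match describes letters in the window and not a bound site.

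The 4 libraries held between 1587840 and 2796547 recovered reads, most in CT baseline and fewest in cKO baseline, and 1 read was worth 0.371 to 0.612 counts per 1000000 reads (CPM). Sav1, the gene meant to be deleted, had 49.3, 35.4, 39.8 and 46.2 CPM in CT baseline, CT TAC, cKO baseline and cKO TAC, so the library labelled cKO TAC was not lower than the library labelled CT TAC, and genotype directions below compare libraries as labelled. All 11 cardiomyocyte markers were listed, and their summed level was 156565, 143919, 133246 and 116836 CPM in CT baseline, CT TAC, cKO baseline and cKO TAC. None of the 11 was called in any pair. The 9 fibroblast markers summed to 1510, 5176, 2547 and 5628 CPM in the same order, and the 11 macrophage markers to 444, 643, 1009 and 882 CPM. Under TAC 7 of the 9 fibroblast markers were called higher in each genotype (77.8%), against 10.7% of all genes in CT and 6.52% in cKO. For cKO against CT at baseline, 5 fibroblast markers (55.6%) and 6 macrophage markers (54.5%) were called higher, against 5.09% of all genes. No marker was called lower in these comparisons. The part of these cell types in the results below was not tested. In heart tissue, fewer cells of a type and less RNA per cell cannot be told apart.

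With 1 library per group, a pair of libraries has no replicate check and no p-value. A gene is called in a pair when its deposited log2 CPM values differ by at least 1, that is 2-fold, and the 95% counting interval of the ratio of reads excludes 1. The interval covers counting error only and leaves out the spread between animals, so a call does not show a difference beyond that spread. The log2 ratios are differences of deposited values, which include an added read and so understate the ratios of genes with few reads.

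The families together took 6077, 5193, 5254 and 4910 CPM in CT baseline, CT TAC, cKO baseline and cKO TAC. The median member had a mean of 15.5 CPM over the 4 libraries, close to the 18.5 CPM of the median listed gene, and 28 of the 134 were under 5 CPM. The sum was carried by few genes. A list of 28 members known from striated muscle held between 54.2% (cKO TAC) and 60% (CT baseline) of it.

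The highest member by CPM was Asb2, a receptor that targets filamins in muscle, with 719, 475, 521 and 449 CPM in CT baseline, CT TAC, cKO baseline and cKO TAC. Fbxo40, which targets the insulin receptor substrate Irs1 in muscle, had 407, 455, 395 and 351 CPM in that order. Trim54 (MuRF3), a RING-finger protein of the sarcomere and microtubules, had 373, 250.6, 344 and 300.2 CPM. For both Asb2 and Trim54 the CT baseline library was the highest of the 4, and for Fbxo40 it was not. Per kilobase of annotated exon, which allows levels to be compared between genes, the order of mean levels was Trim54 (221 CPM per kb), Asb2 (153), Trim72 (96.0), Trim63 (78.7), Asb11 (75.4) and Fbxo40 (72.8), against a median of 3.50 over the 133 members with a length. Fbxo32 stood lower, at 6.27 CPM per kb.

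**Figure D1:**
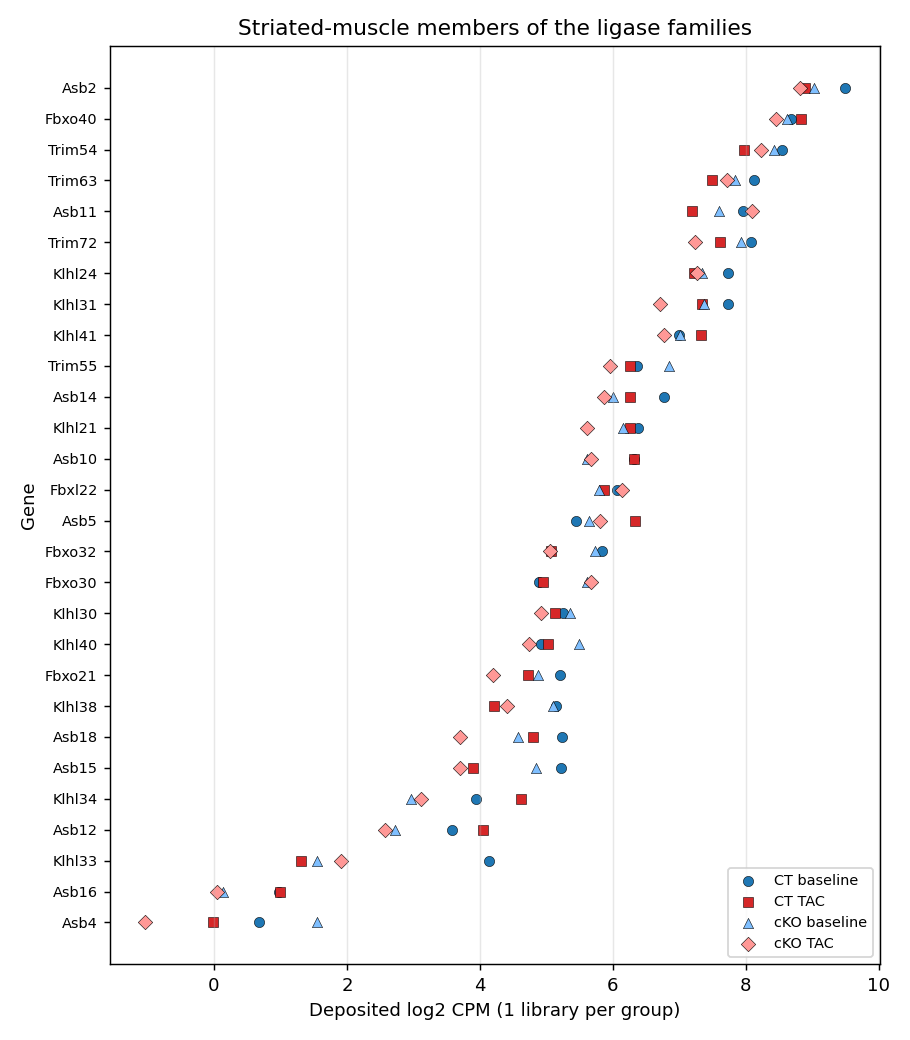
Deposited log2 CPM (horizontal axis) of the 28 striated-muscle members (vertical axis, ordered by mean CPM), with 1 point for each of the 4 libraries. Asb2, Fbxo40 and Trim54 stand highest, and the CT baseline point of Klhl33 stands apart from its other 3 points.

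The muscle RING-finger genes were compared first under TAC in the control genotype. Trim63 (mm10 chromosome 4, 134315120 to 134329629, plus strand), whose promoter is shown above, had 278, 180, 227 and 209.9 CPM in CT baseline, CT TAC, cKO baseline and cKO TAC. It was highest in CT baseline and lowest in CT TAC. Its log2 TAC ratio was -0.62 in CT and -0.11 in cKO, and neither passed 2-fold. Trim54 had log2 TAC ratios of -0.57 in CT and -0.20 in cKO. Trim55 (MuRF2), the third sarcomeric member of the group, had 81.9, 75.9, 114 and 61.5 CPM in CT baseline, CT TAC, cKO baseline and cKO TAC, with log2 TAC ratios of -0.11 in CT and -0.89 in cKO. Both TAC libraries were thus below the baseline library of their genotype for all 3 genes, with the larger gap in CT for Trim63 and Trim54 and in cKO for Trim55. Trim72 (MG53), which helps to reseal the cardiomyocyte membrane, had 268, 196, 243 and 150 CPM, with TAC ratios of -0.45 and -0.70.

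Fbxo32 (mm10 chromosome 15, 58175879 to 58214932, minus strand) had 56.7, 32.9, 52.6 and 32.6 CPM in CT baseline, CT TAC, cKO baseline and cKO TAC. The TAC libraries lay close together and below both baseline libraries. Its log2 TAC ratio was -0.77 in CT and -0.68 in cKO, and the limma fit over all 4 libraries, described below, gave a TAC difference of -0.73 (SE 0.23, adjusted p = 0.161). Klhl38, a Kelch gene on the muscle list, had 34.8, 18.0, 33.6 and 20.7 CPM, again with both TAC libraries below both baseline libraries. Klhl38 lies near Fbxo32 on the same strand (58314573 to 58324169), and exons of both overlap the other-strand gene Gm15943. Whether the counting used strand is not given in the sources used here, so reads of Gm15943 could enter both values.

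The genes most like Trim63 and Fbxo32 were sought among 5931 genes with a mean of at least 20 CPM, by the Euclidean distance between log2 CPM values centred over the 4 libraries. Nearest to Trim63 were Atp5o (distance 0.031), B4gat1 (0.038), Myzap (0.043), Atg9a (0.046) and Slc6a8 (0.046). Nearest to Fbxo32 were Zak (0.032), 2810428I15Rik (0.041), Mef2d (0.059), Kpna6 (0.075) and Pex6 (0.078). Within the families the nearest to Trim63 was Fbxl5, at 0.100, followed by Trim54 at 0.13, and the nearest to Fbxo32 was Klhl38, at 0.176. The distances describe these 4 libraries only.

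The first comparison asked how the families differed between the CT TAC and CT baseline libraries. Of the 134 genes, 3 were higher and 10 were lower, and 121 were not called. That is 9.70% of the families, against 10.7% of all genes, so the share called was near the background. By direction, 6.05% of all genes were called higher and 4.67% lower. The median log2 ratio was -0.12 over the families and 0.01 over all genes.

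Trim16, which takes part in the clearance of damaged lysosomes, was the highest, with 16 reads in CT baseline and 57 in CT TAC. It had 5.93, 28.5, 12.8 and 22.3 CPM in CT baseline, CT TAC, cKO baseline and cKO TAC, so CT baseline was the lowest of the 4. The log2 ratio in CT was 2.17 (ratio interval 2.72 to 8.95). Exons of Trim16 overlap Fbxw10 on the same strand, so its reads could be split with that gene and its value is uncertain. Klhl6, an adaptor known from B lymphocytes, had 12.6, 29.5, 15.9 and 31.5 CPM in CT baseline, CT TAC, cKO baseline and cKO TAC, and both TAC libraries were above both baseline libraries. It was called in CT (1.19, ratio interval 1.51 to 3.68) and had a log2 ratio of 0.97 in cKO (1.23 to 3.28). Trim45 had 2.84, 8.15, 8.97 and 5.44 CPM, with a log2 ratio of 1.38 in CT (ratio interval 1.09 to 7.27).

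Among the 10 lower genes the widest gap was that of Klhl33, a Kelch gene on the muscle list (mm10 chromosome 14, 50888582 to 50897507). It had 46, 4, 4 and 6 reads in CT baseline, CT TAC, cKO baseline and cKO TAC, that is 17.1, 2.0, 2.45 and 3.26 CPM. CT baseline alone was high, and the log2 ratio in CT was -2.82 (ratio interval 0.0306 to 0.321). Fbxo31, an F-box protein that acts after DNA damage, had 111, 45.4, 67.9 and 74.0 CPM in CT baseline, CT TAC, cKO baseline and cKO TAC. It was the best covered of the called genes, and its log2 ratio in CT was -1.28 (0.319 to 0.518). Asb15, a muscle SOCS-box gene linked to muscle protein turnover, had 36.7, 14.5, 28.1 and 12.5 CPM, with both TAC libraries below both baseline libraries. Its log2 ratio was -1.31 in CT (0.251 to 0.602).

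The other 7 lower genes had at most 72 reads in CT baseline. Trim7, which binds glycogenin, had 26.7, 11.5, 19.6 and 23.9 CPM in the same order and a log2 ratio of -1.18. Fbxl14, which targets the transcription factor Snail, had 14.5, 5.49, 15.3 and 10.9 CPM and a ratio of -1.32. Klhl11 had 15.6, 6.49, 4.89 and 6.53 CPM (-1.20), and CT baseline was the highest of its 4 libraries. The log2 ratios of the last 4 were -1.51 for Asb13, -1.13 for Asb1, -1.04 for Klhl18 and -1.03 for Fbxo28. Of the 13 called genes, Asb13 and Trim45 had fractional reads, as multi-mapped reads give, and are uncertain.

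In the cKO genotype, TAC was set against baseline in the same way. Here 1 of 134 genes was higher and 3 were lower, which is 2.99% of the families against 6.52% of all genes. By direction, 3.69% of all genes were called higher and 2.83% lower. With libraries scaled to total reads the split was 2 higher and 2 lower, as Trim12c was then called (1.16) and Fbxo10 was not. The median log2 ratio was -0.02 over the families and -0.00 over all genes.

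Asb15 was lower here too, at -1.14 (ratio interval 0.257 to 0.749). Fbxo28 had 14.8, 6.99, 19.0 and 8.70 CPM in CT baseline, CT TAC, cKO baseline and cKO TAC, with log2 ratios of -1.03 in CT (0.237 to 0.885) and -1.08 in cKO (0.234 to 0.865). Asb15 and Fbxo28 were thus called lower in both genotypes, in pairs that share no library. They are 15.4% of the 13 genes called in CT and 50% of the 4 called in cKO. Over all genes, 232 were called the same way in both, 17.4% of the 1331 called in CT and 28.7% of the 809 called in cKO. Fbxo10, which targets the survival protein Bcl2, had 10.7, 11.5, 12.2 and 5.44 CPM and a ratio of -1.10 in cKO, with an interval that reached 0.995. Fbxo44 was the gene called higher, with 10 reads in cKO baseline and 25 in cKO TAC (1.09, ratio interval 1.03 to 5.19), and it had fractional reads.

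**Figure D2:**
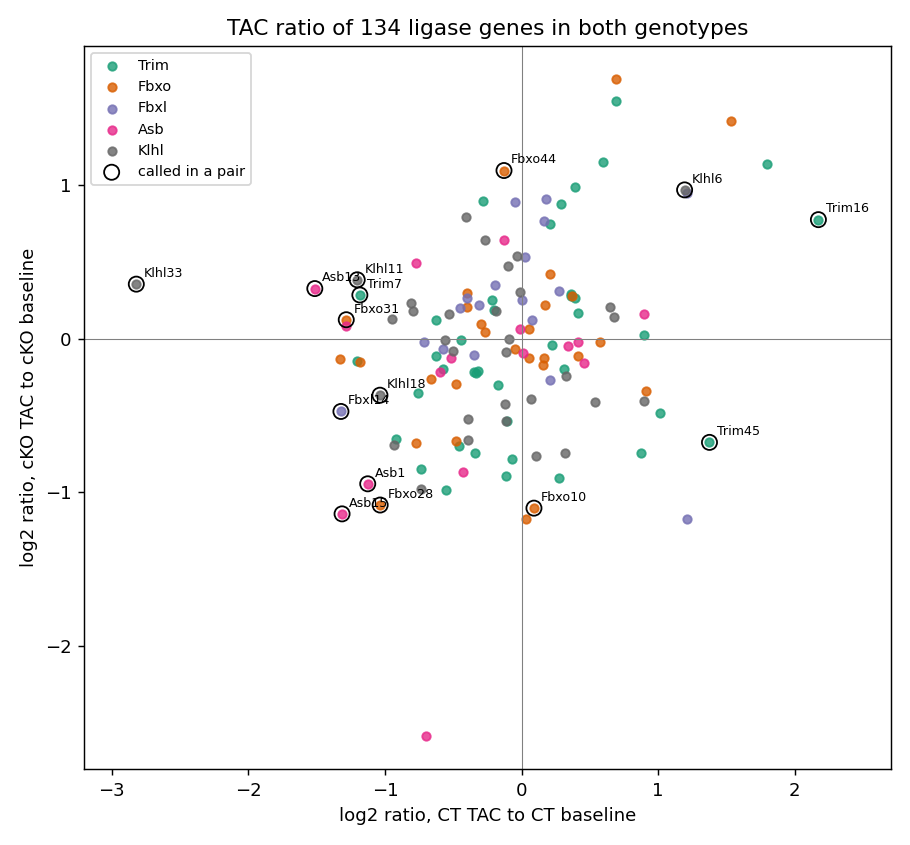
Log2 ratio of TAC to baseline in CT (horizontal axis) and in cKO (vertical axis) for the 134 genes, coloured by family, with circles around genes called in at least 1 of these pairs. Asb15 and Fbxo28 sit at the lower left, Trim16 and Klhl6 at the upper right, and Klhl33 far left at -2.82 in CT.

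Of the 28 muscle-list genes, 20 had a log2 TAC ratio below 0 in CT and 21 in cKO, with 16 below 0 in both. The median was -0.41 in CT, against 0.01 for all genes, and -0.21 in cKO, against -0.00. In CT 2 were called, Asb15 and Klhl33 (7.14% against 10.7% of all genes), and in cKO Asb15 was called (3.57% against 6.52%). Among the Kelch genes of the sarcomere, Klhl31 had 211, 161, 165 and 104 CPM in CT baseline, CT TAC, cKO baseline and cKO TAC, and Klhl41 had 127, 159, 128 and 108. Klhl40, which steadies thin filament proteins and is mutated in human nemaline myopathy, had 29.7, 31.9, 44.7 and 26.1 CPM. For Klhl31 the TAC library was the lower in both genotypes, whereas for Klhl40 and Klhl41 it was the lower in cKO and the higher in CT. Of the other muscle-list genes, Klhl24, a stress-responsive Kelch gene, had 211, 149, 161 and 153 CPM, with CT baseline the highest, and was not called in any pair. Asb5 had 43.0, 80.4, 49.5 and 55.5 CPM, with CT TAC the highest, and its exons overlap those of Spcs3 on the other strand. Fbxo21 had 36.3, 26.0, 28.7 and 17.9 CPM, with the TAC library the lower in each genotype. Asb4 and Asb16 lay near 1 read, and Asb4 had 0 reads in cKO TAC, at which up to 3 reads, 1.63 CPM, are allowed. Cardiomyocyte markers had a median log2 TAC ratio of -0.16 in CT and -0.15 in cKO, with 0 of 11 called, and their part in the muscle-list values was not tested. Of 11 skeletal muscle markers 7 were listed, namely Acta1, Myh1, Myh2, Myh4, Tnni2, Mylpf and Actn3, while Tnnt3, Tnnc2, Pvalb and Myf6 were not. The 7 summed to 669, 9362, 1990 and 2920 CPM in the same order of libraries. In CT, 2 of the 7 were called higher under TAC and none lower (28.6% against 10.7% of all genes). Their median log2 ratio was 1.01 and the highest 3.82, so the sum does not describe each marker. It cannot be read as an amount of skeletal muscle tissue. In cKO, 1 was called lower and none higher (14.3% against 6.52%), with a median of 0.56. The part of the skeletal muscle markers in the muscle-list values was not tested either.

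A fit of all 4 libraries with limma, which had a term for genotype and one for surgery, tested TAC over 2 TAC and 2 baseline libraries. It called none of the 134 genes at an adjusted p under 0.05, while 226 of 12408 genes (1.82%) were called. At an unadjusted p under 0.05 there were 17 members, 4 higher and 13 lower, which is 12.7% of the families against 16.2% of all genes. Among all genes 8.85% were higher and 7.37% lower at that level. The fit has 1 residual degree of freedom and borrows 10.1 from the other genes, and its residual is the difference between the genotypes' TAC responses.

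The lowest adjusted p belonged to Asb15, with a TAC difference of -1.23 (log2, SE 0.29, limma adjusted p = 0.0623). Trim16 followed with 1.47 (SE 0.38, adjusted p = 0.0892) and Klhl6 with 1.08 (SE 0.29, adjusted p = 0.0971). For these 3 genes the TAC ratio had 1 sign in CT and cKO alike. When only genes with a mean of at least 5 CPM were tested, the limma adjusted p was 0.0316 for Asb15 and 0.0484 for Trim16. Over the 7 alternative fits the adjusted p ran from 0.0316 to 0.324 for Asb15 and from 0.0484 to 0.376 for Trim16. Trim72 was at -0.58 (SE 0.18, adjusted p = 0.149) and Klhl31 at -0.53 (SE 0.19, adjusted p = 0.196). Trim63 stood at -0.37 (SE 0.19, adjusted p = 0.372).

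The next comparison set the cKO baseline library against CT baseline. Of the 134 genes, 2 were higher and 3 lower, 3.73% of the families against 5.09% of all genes. By direction, 3.28% of all genes were called higher and 1.81% lower. The higher genes were Trim45, at 1.51 (ratio interval 1.23 to 8.43), and Trim16, at 1.05 (1.08 to 4.44). The lower genes were Klhl33 at -2.58 (0.0375 to 0.393), Klhl11 at -1.58 (0.127 to 0.678) and Fbxo44 at -1.26 (0.18 to 0.817). This comparison shares its CT baseline library with the CT TAC comparison, so a high or low value in that library enters both. When members with fractional reads were left out, 3 of the 5 were called.

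The Asb genes leaned to lower values in this pair. Of the 16 measured, 13 had a log2 ratio below 0 and the family median was -0.56, against 0.00 over all genes, although none was called. Asb10 had 79.5, 78.9, 48.3 and 50.6 CPM in CT baseline, CT TAC, cKO baseline and cKO TAC, so both cKO libraries were below both CT libraries. Asb14 had 108, 75.6, 63.3 and 57.9 CPM, with the same order between genotypes. Asb10 and Asb14 had fractional reads. In the limma fit for genotype described below, 5 of the 16 Asb genes were lower at an unadjusted p under 0.05 (31.2% against 3.63% of all genes) and none had an adjusted p under 0.05. Asb8 had log2 ratios of -0.45 at baseline and -0.89 under TAC.

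Under TAC, cKO was compared with CT in a pair that shares no library with the baseline pair. It shares CT TAC with the TAC comparison in CT and cKO TAC with that in cKO, so a high or low value there enters both. Here 1 gene was higher and 6 were lower, 5.22% of the families against 5.02% of all genes. By direction, 2.93% of all genes were called higher and 2.09% lower. The gene called higher was Trim7, at 1.03 (ratio interval 1.23 to 3.62). Trim7 was also called lower under TAC in CT (-1.18), and both calls use the CT TAC library. Exons of Trim7 overlap other-strand genes, so its reads are uncertain. Scaling to total reads moved the median of all genes from 0.01 to 0.10, and the split was then 3 higher and 5 lower, with Asb11 (1.00) and Klhl26 (1.30) among the higher. Asb11 and Klhl26 had fractional reads.

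The 6 lower genes held 3 of the 28 on the muscle list, which is 10.7% of the list against 5.02% of all genes. At baseline 1 of the 28 was called, on the lower side, which is 3.57% against 5.09%. Shares from so few calls describe the list only. Klhl34 had 14.8, 24, 7.34 and 8.16 CPM in CT baseline, CT TAC, cKO baseline and cKO TAC, and both cKO libraries were below both CT libraries. Its log2 ratio was -1.50 under TAC (ratio interval 0.177 to 0.618) and -0.97 at baseline. Asb12 had 11.5, 16.0, 6.12 and 5.44 CPM, with ratios of -1.47 under TAC (0.149 to 0.71) and -0.86 at baseline. Asb18 had 37.1, 27.5, 23.2 and 12.5 CPM, with -1.10 under TAC (0.267 to 0.754) and -0.66 at baseline. For these 3 genes the cKO libraries were the lower at both states.

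Klhl23 showed the same order, with 33.7, 35.4, 20.2 and 15.2 CPM and a ratio of -1.19 under TAC. Klhl28 (13.7, 26.0, 15.3 and 11.4 CPM, ratio -1.15) and Fbxo7 (10.9, 21, 12.5 and 9.79 CPM, ratio -1.06) were lower under TAC only, where CT TAC was the highest library. Fbxo7 is an F-box protein linked to mitophagy and, in humans, to parkinsonism. It had fractional reads and its exons overlap the other-strand gene A230060F14Rik, so its value is uncertain. Of the 5 members called at baseline and the 7 called under TAC, none was called in both genotype pairs. Over all genes, 51 were called the same way in both, 8.08% of the 631 called at baseline and 8.19% of the 623 under TAC. At those shares, so few called members would hold few or none called in both.

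**Figure D3:**
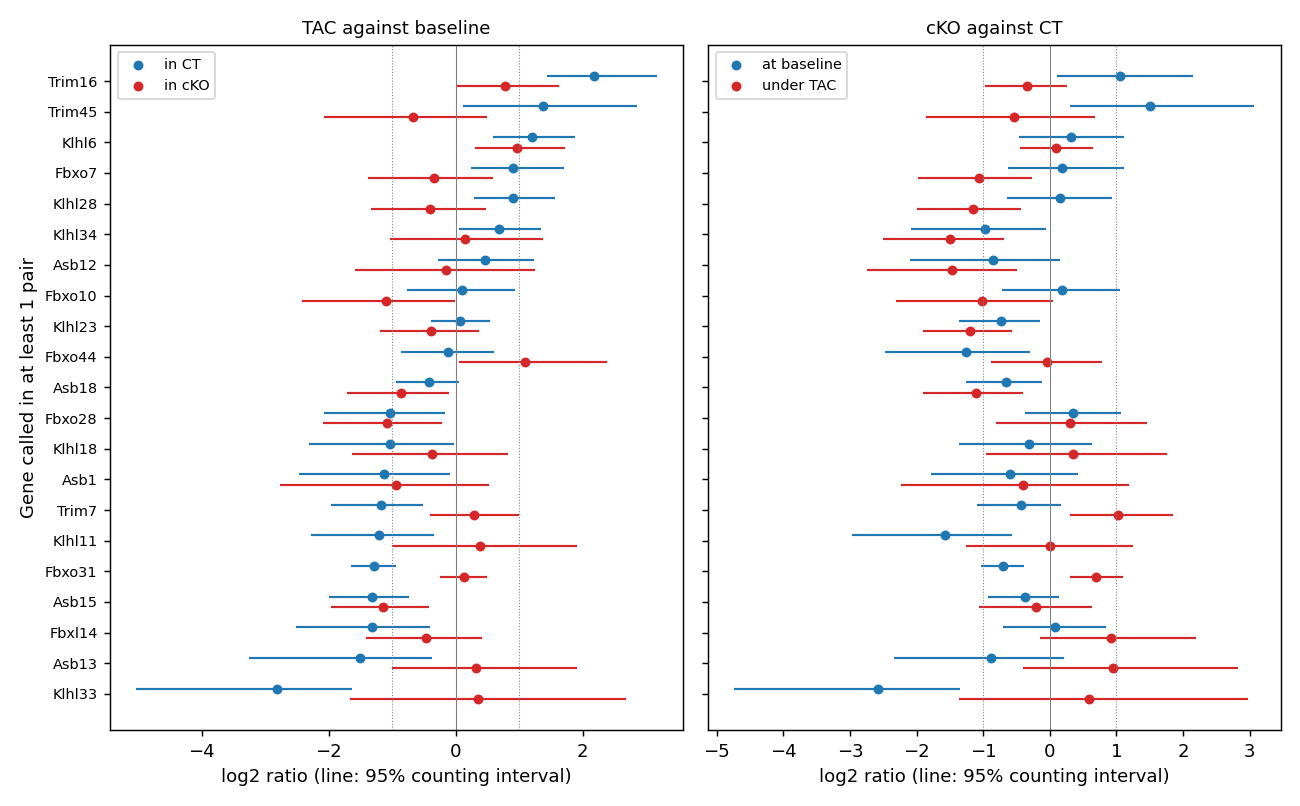
Log2 ratios of the 21 genes called in at least 1 pair, with TAC against baseline on the left (blue in CT, red in cKO) and cKO against CT on the right (blue at baseline, red under TAC). Points are deposited log2 ratios, lines are 95% counting intervals of the read ratio, and dotted lines mark 2-fold. Klhl33 is lowest at -2.82 and Trim16 highest at 2.17 in CT.

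The limma fit for genotype, over 2 cKO and 2 CT libraries with a term for surgery, called none of the 134 genes at an adjusted p under 0.05, and 3 of 12408 genes (0.0242%). At an unadjusted p under 0.05 it gave 10 members, 1 higher and 9 lower, 7.46% of the families against 7.77% of all genes, of which 4.13% were higher and 3.63% lower. Klhl7 had the lowest p, with a difference of -0.70 (log2, SE 0.19, limma adjusted p = 0.438), and it had fractional reads. Klhl34 (-1.23, SE 0.35, adjusted p = 0.466) and Klhl23 (-0.96, SE 0.28, adjusted p = 0.481) came next. The member on the higher side was Fbxo30, a muscle F-box gene also called MUSA1, which had 29.3, 30.4, 48.3 and 50.6 CPM in CT baseline, CT TAC, cKO baseline and cKO TAC. Both cKO libraries were above both CT libraries (difference 0.72, SE 0.24, adjusted p = 0.533). The fit does not show that the genotypes express these genes alike.

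By family, the medians stayed within 0.60 of 0 on the log2 scale in every pair. Trim genes had a median of -0.11 for TAC in CT and -0.13 in cKO, and Fbxo genes -0.01 and -0.09. Fbxl genes had -0.02 in CT and 0.23 in cKO, and 15 of 18 were above 0 for cKO against CT under TAC (median 0.39, none called). Klhl genes had -0.15 in CT, with 23 of 32 below 0, and -0.01 in cKO. Asb genes had -0.47 in CT and -0.07 in cKO.

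**Figure D4:**
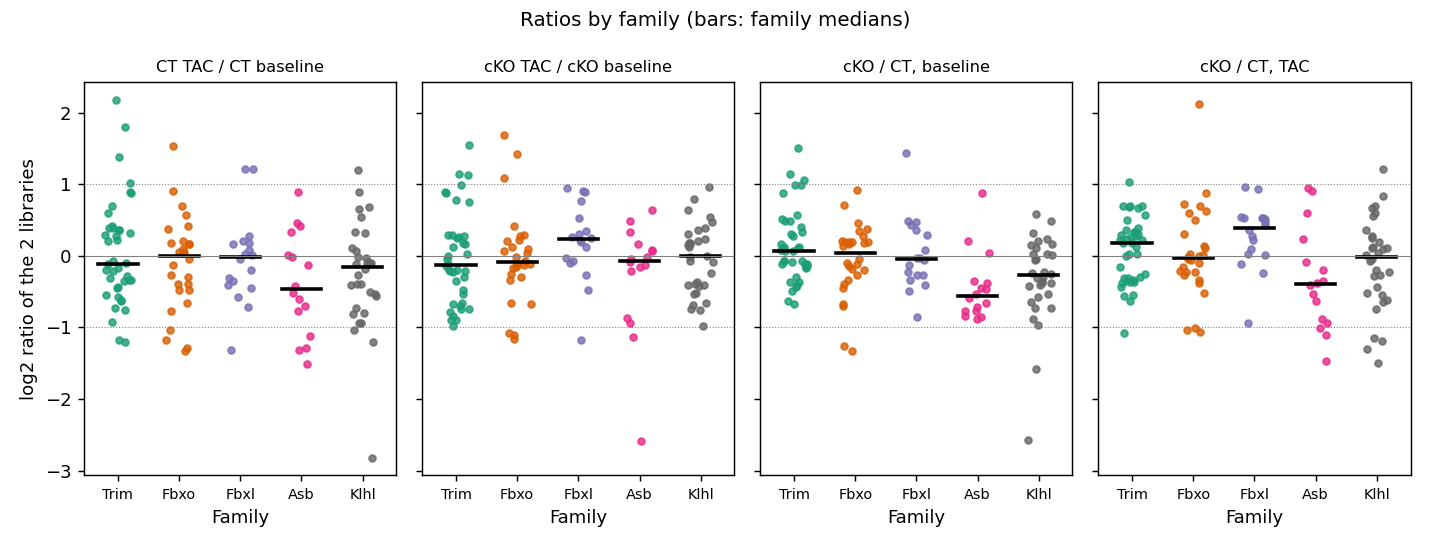
Log2 ratios (vertical axis) of all 134 genes by family in the 4 pairs of libraries. Each point is 1 gene, black bars are family medians, and dotted lines mark 2-fold. The Asb median is the lowest of the 5 in CT under TAC (-0.47) and for cKO against CT at baseline (-0.56) and under TAC (-0.40).

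The TAC ratios of the genotypes were also set against each other. The difference of the log2 TAC ratios, cKO minus CT, had a counting interval that excluded 0 for 27 of the 134 genes (20.1%), against 18.9% of all genes. Of these 16 were above 0 and 11 below. Among all genes 9.04% were above and 9.82% below. On the muscle list 12 of 28 intervals excluded 0, but better covered genes have narrower intervals, so this share cannot be set against that of all genes. Computed from reads, the difference was 3.30 for Klhl33 (interval 1.07 to 5.53), 1.41 for Fbxo31 (0.914 to 1.90) and 1.26 for Asb11 (0.976 to 1.54). Asb11 had 247, 145, 194 and 272 CPM in CT baseline, CT TAC, cKO baseline and cKO TAC, so the TAC library was the lower in CT and the higher in cKO. Asb11 had fractional reads. Trim63 had 0.51 (0.238 to 0.786). On the other side stood Trim45 (-2.17, interval -3.82 to -0.529), Trim16 (-1.45, -2.54 to -0.361) and Trim55 (-0.79, -1.23 to -0.336). The spread between animals was not measured, so these differences have no test.

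Among the 12 listed antiviral Trim genes 0 were called in any pair, where 10.7%, 6.52%, 5.09% and 5.02% of all genes were called, so a list this short would hold few calls at those shares. Trim21, a cytosolic antibody receptor whose promoter is shown above, had 4.45, 5.49, 8.56 and 4.35 CPM in CT baseline, CT TAC, cKO baseline and cKO TAC. Trim30a had 8.90, 10.5, 13.5 and 13.1 CPM. Trim25, which activates the RNA sensor RIG-I, had 30.8, 18.0, 29.4 and 22.8 CPM and was the highest of the group in CT baseline. The list's median log2 TAC ratio was 0.32 in CT and 0.04 in cKO. A list of 30 interferon-induced genes had medians of 0.47 and 0.13. Gbp3 was called higher and Gbp6 lower in CT, 6.67% against 10.7% of all genes, and none was called in cKO, against 6.52%. Trim5, Trim12a, Trim12c, Trim30a, Trim30d, Trim34a and Trim34b have close copies of one another in the genome, so reads could be split among them and their values are uncertain.

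The partners of these receptors were described from a list of 36 measured cullin-RING genes. In CT, 1 was lower under TAC (Dcun1d3, with 13 reads in CT baseline and 1 in CT TAC) and none was higher, 2.78% against 10.7% of all genes. In cKO 1 was lower (Dcun1d4) and none higher, 2.78% against 6.52%. For cKO against CT, none was called at baseline, against 5.09% of all genes. Under TAC, Rnf7 was higher (1.95) and Dcun1d2 lower (-1.68), 5.56% against 5.02%. Cul3, the cullin of the Kelch proteins, had 401, 536, 275 and 424 CPM in CT baseline, CT TAC, cKO baseline and cKO TAC. Skp1a, the F-box adaptor, had 511, 815, 433 and 725 CPM. For both the TAC library was the higher in each genotype, and limma gave TAC differences of 0.52 for Cul3 (SE 0.17, adjusted p = 0.167) and 0.71 for Skp1a (SE 0.165, adjusted p = 0.0595). Cul1 (156, 145, 124 and 136 CPM) and Cul5 (119, 106, 93.0 and 86.5 CPM) were not called in any pair.

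Among 38 other substrate receptors, 2 were higher and 4 lower under TAC in CT, which is 15.8% against 10.7% of all genes. In cKO 2 were higher and 1 lower, 7.89% against 6.52%. Of 28 other ligases of muscle protein turnover, Cblb and Ubr2 were lower in CT (each -1.09), which is 7.14% against 10.7% of all genes. In CT 20 had a ratio below 0. None was called in cKO, against 6.52% of all genes.

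Genes of the FoxO and glucocorticoid wasting program, which act upstream of or beside Trim63 and Fbxo32, differed in more cases. The list was chosen with earlier results of these data known, so its shares describe it and test nothing. It also holds the insulin signalling genes Igf1, Irs1 and Irs2, so its counts do not give 1 direction of the program. Of 30 measured, 2 were higher and 7 lower in CT under TAC, which is 30% against the 10.7% of all genes, and in cKO 3 were higher and none was lower, 10% against 6.52%. Klf15, a glucocorticoid-induced transcription factor, had 43.7, 7.49, 31.2 and 21.8 CPM in CT baseline, CT TAC, cKO baseline and cKO TAC. Its log2 TAC ratio was -2.47 in CT and -0.51 in cKO. Foxo3 had 62.6, 26.5, 42.2 and 29.9 CPM, with ratios of -1.23 and -0.49. Bnip3l was called higher under TAC in both genotypes, with ratios of 1.24 in CT and 1.01 in cKO. At baseline, 1 of the 30 was higher and 4 were lower in cKO than in CT (16.7% against 5.09% of all genes), with a median of -0.36. Fstl3 was the higher gene (2.15), and Ddit4 (-1.51), Cebpb (-1.25), Irs2 (-1.15) and Irs1 (-1.03) were the lower. Under TAC, 6 of the 30 were higher in cKO than in CT and none was lower (20% against 5.02%), among them Klf15 (1.48), Fkbp5 (1.44) and Cebpb (1.51). Klf15, Fkbp5 and Cebpb were also called lower under TAC in CT. Both comparisons use the CT TAC library, so these calls are not separate results. Limma called none of the 30 for TAC or for genotype at an adjusted p under 0.05, and 8 and 4 of them had an unadjusted p under 0.05.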

How the data were processed

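Heart RNA was sequenced in 4 libraries, 1 per group. CASAVA, HISAT2, edgeR and the mm10 build are listed in the submitters' processing notes, without roles or versions, and no source used here names the counter. Values were deposited by the authors as log2 CPM with a read-sized amount added before the logarithm, as read from the values. Reads were recovered from their grid (88.6% to 89.0% of genes whole within 0.01 of a read, 2449 genes with parts of reads in some library).

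All 12408 genes were analysed and only the families printed. Pairs used deposited log2 ratios with Clopper-Pearson 95% intervals from rounded reads. A count model was planned for count files only, and limma 3.58.1 (R 4.3.3) with a variance trend was fitted to log2 CPM, with Benjamini-Hochberg adjustment over all genes. The pair rule and fit were tested on simulated data with an assumed spread between animals. There the pair rule also called unchanged genes, in numbers near those of the genotype pairs here, and missed many genes with a 2-fold change, so calls in single pairs are descriptions. Positions and exon lengths are from GENCODE M21 (GRCm38), which matched 133 of 134 genes, 1 by an older symbol.

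Members and lists were chosen with earlier results of these data known. Named were all called members, the muscle and antiviral lists and the 5 highest. Genes named beyond that were chosen after their values were seen. Alternatives changed scaling, pseudocount, filter, fold, shared reads and model. Marker lists of cell types not printed here were computed and not used.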

Additional observations from a re-analysis of the deposited data

Results flagged for a closer look

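Genes are given here when they were called in 1 pair and had the opposite sign in the other genotype or state, with 1 library on each side, so the difference was not tested. For TAC against baseline, the log2 ratios in CT and in cKO were opposite for Asb13 (-1.51 and 0.33), Fbxo10 (0.091 and -1.10), Fbxo31 (-1.28 and 0.12), Fbxo44 (-0.13 and 1.09), Klhl11 (-1.20 and 0.38), Klhl33 (-2.82 and 0.35), Trim45 (1.38 and -0.67) and Trim7 (-1.18 and 0.28). For cKO against CT, the log2 ratios at baseline and under TAC were opposite for Fbxo7 (0.19 and -1.06), Klhl11 (-1.58 and 0.0076), Klhl28 (0.15 and -1.15), Klhl33 (-2.58 and 0.59), Trim16 (1.05 and -0.34), Trim45 (1.51 and -0.54) and Trim7 (-0.44 and 1.03). In each of these pairs the ratio that was not called had a counting interval that included 1, so its sign is within counting error.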

How the results depend on the processing

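The counts of called genes under TAC in CT (13), under TAC in cKO (4), for cKO against CT at baseline (5) and for cKO against CT under TAC (7) stayed within 1.5 times under both other scalings, a mean of at least 5 CPM and log2(CPM + 1). With a fold of at least 1.5 they were 27, 20, 14 and 16, beside 21.2%, 14%, 10.8% and 12.1% of all genes. Without genes that had fractional reads, 3 were called for cKO against CT at baseline. The limma counts for TAC and genotype were 0 in every alternative except a mean of at least 5 CPM, which gave 2 for TAC, Asb15 and Trim16, from fewer genes tested. No called ratio of a named gene changed direction. Calls were lost for Fbxo28 and Klhl18 (TAC in CT), Trim16 (baseline) and Trim7 (under TAC) with log2(CPM + 1), and for Fbxo10 (TAC in cKO) and Fbxo7 (under TAC) with total reads. Each of these ratios lay near 2-fold or its interval near 1. Leaving out a library leaves the limma fit no residual degree of freedom, and the value is then the ratio of the remaining pair. No paired analysis was possible because each group holds 1 library. At 0.371 to 0.612 CPM per read, a 2-fold difference in genes with a few reads was not detectable.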
